A study of Homo sapiens with 6 samples.

Results

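The genes described here are 10 regulators and amino acid sensors of mTORC1, the growth-controlling kinase complex: DDIT4, TSC2, MTOR, RPTOR, DEPTOR, RRAGC, RRAGD, SESN3, CASTOR1 and EIF4EBP1. They were taken by gene symbol from a table of 58735 genes, as a list drawn up by function with earlier results of these data known. RNA was sequenced from MG63 cells, an established human osteosarcoma line, in which FUBP1, a nuclear protein that binds single-stranded DNA and RNA, had been knocked down. The siFUBP1 group (3 samples) received small interfering RNA against FUBP1 and the siMock group (3 samples) received a negative control, and RNA was extracted 48 h after transfection. The labels name no other treatment, and nothing in them says that the samples of a group came from separate cultures, so p-values measure the spread between these samples, which may be technical. The question was how the mRNA of these genes differed between cells with little and with normal FUBP1 mRNA.

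mTORC1 joins the kinase MTOR with RPTOR, which brings in substrates, and switches cells toward protein synthesis when amino acids, energy and growth factors are plentiful. Amino acids act through the Rag GTPases on the lysosome. The sestrins, SESN2 foremost, sense leucine and CASTOR1 senses arginine. Both hold back Rag signalling through the GATOR complexes when their amino acid is scarce. Growth factor and stress signals act through the TSC complex, which switches off the GTPase RHEB, and active mTORC1 phosphorylates 4E-BP1, the product of EIF4EBP1, to release the translation factor EIF4E.

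In siFUBP1, 4 of the 10 genes rose (DDIT4, EIF4EBP1, RRAGC and RRAGD), 3 fell (TSC2, MTOR and RPTOR), DEPTOR did not pass the test, and SESN3 and CASTOR1 had too few reads to be tested. The test was edgeR's quasi-likelihood test on the read counts with Benjamini-Hochberg adjustment over all 16116 genes with enough reads, and a gene passed at an adjusted p below 0.05. The background was high: 30.1% of all genes tested rose and 30.1% fell, 60.2% in all, and the 7 passing genes among the 8 tested are to be read against that share. A gene that also differed by more than 1 on the log2 scale was called. This held for RRAGD among the genes that rose and for TSC2 among those that fell, beside 8.16% of all genes called higher and 9.13% called lower. RRAGD passed the filter on low counts only through its siFUBP1 samples, so it could be tested only because it was high there, and its call is given as a description. The groups did not overlap for the 7 genes that passed, with 4 genes higher beside 32.2% of all genes tested and 3 lower beside 31.7%, or 63.9% in all.

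Read totals lay between 16309900 and 17484313 counts in siMock and between 16499842 and 17073410 in siFUBP1. FUBP1 itself (ENSG00000162613, chr1:77944055-77979110, minus strand, GRCh38) had 3872, 4331 and 4282 counts in siMock and 749, 752 and 926 in siFUBP1. This left 18.4% of its siMock level, a log2 fold change of -2.44 (SE 0.0895, adjusted p = 1.90e-17, edgeR's quasi-likelihood test). The labelled cell type was checked against markers, and only VIM and COL1A1 of 10 osteoblast and mesenchymal markers had at least 10 counts in every sample. COL1A2 and IBSP, a collagen chain and a bone matrix protein, had 0 counts in all 6 samples, SPARC at most 5 and SP7 at most 2, while the epithelial keratin KRT8 was counted 28650 to 34970 times per siMock sample and 16128 to 18157 times per siFUBP1 sample. Of the other 4 epithelial markers KRT18 was also high, at 7498 to 12282 counts, whereas EPCAM had 59 to 83, CDH1 8 to 22 and KRT19 at most 3. The summed level of the 10 osteoblast and mesenchymal markers was 257 to 273 CPM (counts scaled to a common library size) in siMock and 235 to 263 CPM in siFUBP1, a sum in which VIM rose to 130.2% and COL1A1 fell to 40.2% of the siMock level. RUNX2, a bone transcription factor, had from 6 to 8 counts in the siMock samples and from 39 to 97 in the siFUBP1 samples. The summed level of the 5 epithelial markers was 2528 to 2901 CPM in siMock and 1367 to 1497 CPM in siFUBP1. The 4 haematopoietic markers summed to at most 4.53 CPM and the 3 endothelial markers to at most 5.18 CPM in any sample. Most bone markers of the list were thus absent or near 0 and keratins KRT8 and KRT18 high. EPCAM, CDH1 and KRT19 were low, and epithelial genes outside the list were not checked. What share this had in the results was not tested. In bulk RNA, fewer cells that express a gene and less RNA per cell cannot be told apart.

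Sequences of these genes were searched in 2 ways, for letters in their promoters and for matches to the siRNAs against FUBP1 that the study lists. Promoters of 300 bases (250 before and 50 after the start site, RefSeq, GRCh38.p14) were given for 7 of the 10 genes, with none for EIF4EBP1, RRAGD and DEPTOR. They were searched on both strands for TGATGNAA, the core bound by ATF4 with C/EBP proteins, for TCACGTGA, the core of the CLEAR element bound by TFEB, for the E-box CACGTG, which lies inside that core, and for the FOXO motif GTAAACA. Only TSC2 and RRAGC held a match. The TSC2 window is shown because the ATF4 and the CLEAR core overlap in it, and the RRAGC window because the same E-box stands before a gene that moved the other way. Capitals mark the matched letters.
TSC2, ATF4 and C/EBP core: ccccgtcacgTGATGCAAggatcgccgg
TSC2, CLEAR core: tgcggccccgTCACGTGAtgcaaggatc
RRAGC, E-box: gtgattccggCACGTGacggggcacc

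The TSC2 windows lie at chr16:2047865-2047892 and chr16:2047860-2047887 on the plus strand, with the motifs starting at -110 and -115 from the start site of 1 of its 2 RefSeq promoters. The RRAGC window lies at chr1:38859869-38859894 on the minus strand, with the motif starting at -112. Of 35116 promoters of this length, 3.62% held the ATF4 and C/EBP core, 0.98% the CLEAR core, 7.26% an E-box and 3.42% the FOXO motif. The promoters of MTOR, RPTOR, DDIT4, SESN3 and CASTOR1 held none of these letters in the window searched. A match is a description of the letters and no evidence of binding.

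A guide strand of an siRNA can also lower other mRNAs that pair with its seed, bases 2 to 8, in their 3′ untranslated region. The study lists 3 siRNAs against FUBP1 and its text does not say which was sequenced here, so all 3 guides are shown, with the seed in capitals.
RNAi#1: uAAACUGAaugcgaacacctt
RNAi#2: uAAGAGGUuugucagcacctt
RNAi#3: uUUCUUCUaugaguugccgtt

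In 1 transcript per gene, RPTOR held a match to the seed of RNAi#3, RRAGC a match to that of RNAi#1, and RRAGD 2 matches to RNAi#1 and 1 to RNAi#2. SESN3, with a very low count in both groups, held 3 matches to RNAi#1 and 1 to RNAi#2. The RPTOR site is the one in a gene that fell and the RRAGC and RRAGD sites are in genes that rose, and capitals mark the 7 bases that pair.
RPTOR, RNAi#3 site: ctcccaccAGAAGAAggttccgg
RRAGC, RNAi#1 site: ctcagattTCAGTTTtggacatt
RRAGD, RNAi#1 site: atgaagaaTCAGTTTtctaatat
RRAGD, second RNAi#1 site: ctaagcgtTCAGTTTttcaaatc
RRAGD, RNAi#2 site: tcactgttACCTCTTgggctcaa

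These sites lie in GRCh38 at chr17:80965845-80965867 (plus strand) for RPTOR, at chr1:38839078-38839100 (minus strand) for RRAGC, and at chr6:89365867-89365889, chr6:89365521-89365543 and chr6:89366449-89366471 (minus strand) for RRAGD. Of 18781 genes with a 3′ untranslated region, 17.6% held a match to the seed of RNAi#1, 11.2% to that of RNAi#2 and 18.2% to that of RNAi#3. DDIT4, EIF4EBP1, CASTOR1, MTOR, DEPTOR and TSC2 held no match to any of the 3 seeds. TSC2 and MTOR, which fell, and DDIT4 and EIF4EBP1, which rose, are among these 6. Of the paralogs and partners described below, some that fell held matches. TSC1 held 2 to RNAi#2 and 1 to RNAi#3, EIF4EBP2 3 to RNAi#1 and 1 to each other seed, and SESN1 1 to RNAi#3. SESN2, which rose, held 1 to RNAi#1, and CASTOR2, which fell, held none. Whether seed pairing had a part in any of these changes was not tested.

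**Figure D1:**
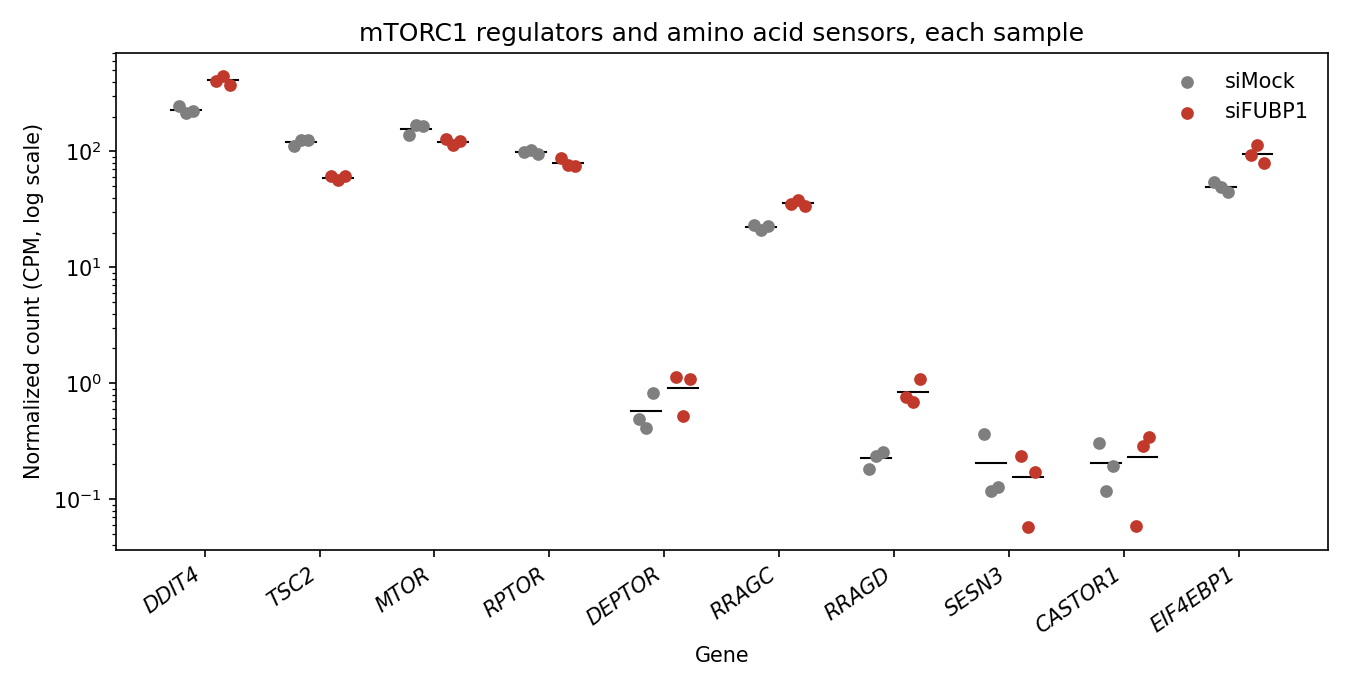
Normalized count (CPM, logarithmic axis) of each of the 10 genes in each sample, with siMock in grey, siFUBP1 in red and a bar at each group mean. DDIT4, RRAGC, RRAGD and EIF4EBP1 lie higher and TSC2, MTOR and RPTOR lower in all 3 siFUBP1 samples, whereas the samples of DEPTOR, SESN3 and CASTOR1 overlap.

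DDIT4 (ENSG00000168209, chr10:72273920-72276036, plus strand) encodes REDD1, a stress-induced protein that restrains mTORC1 through the TSC complex. Its normalized count was 247, 216 and 222 CPM in siMock and 403, 451 and 375 CPM in siFUBP1. Every siFUBP1 sample stood well above the highest siMock sample. The group means were 229 ± 16.4 and 410 ± 38.5 CPM (SD, n = 3 each), a 1.79-fold rise with a log2 fold change of 0.84 (SE 0.0835, 95% interval 0.67 to 1.01, adjusted p = 2.54e-09, edgeR's quasi-likelihood test). Per length DDIT4 was the most abundant of the 10 genes in both groups, at 110 FPKM (fragments scaled by gene length and library size, as deposited) in siMock and 198 FPKM in siFUBP1. Its annotated antisense gene DDIT4-AS1 shares 41.2% of the exonic bases of DDIT4, and it had 0 counts in all 6 samples. The library kit named in the labels does not mark strand, so reads of the pair cannot be told apart where they overlap. The 847 shared bases are the whole exonic length of DDIT4-AS1, so its 0 counts do not show that it was silent. Reads over these bases may also be missing from the count of DDIT4. The paralog DDIT4L, REDD2, had 0 counts in every sample, which allows up to 0.192 CPM.

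TSC2 (ENSG00000103197, chr16:2047465-2089487, plus strand) encodes tuberin, the part of the TSC complex that switches off RHEB. It had 1825, 2144 and 1952 counts in siMock and 1032, 980 and 1063 in siFUBP1. In CPM these were 112, 126 and 125 against 61.1, 56.5 and 60.9. All siFUBP1 samples lay far below all siMock samples, and the siFUBP1 samples lay close to each other. The means were 121 ± 7.97 and 59.5 ± 2.60 CPM (SD, n = 3 each), so that TSC2 fell to 49.2% of its siMock level with a log2 fold change of -1.02 (SE 0.0802, 95% interval -1.19 to -0.86, adjusted p = 3.18e-11, edgeR's quasi-likelihood test). The value sits at the threshold for a call: it was -0.99 without siMock replicate 2 and -0.98 without siFUBP1 replicate 2. TSC2 mRNA has a GC content of 60.5%, against a median of 48.9% over the genes tested. After the trend of the changes on GC content and gene length was removed, the log2 fold change was -0.67 (adjusted p = 3.35e-09, edgeR's quasi-likelihood test). This GC content and length correction was chosen after seeing the data. TSC2 overlaps PKD1 and NTHL1, both on the opposite strand, by 3.96% and 2.05% of its exonic bases. The count of PKD1 was 2713 to 3054 in siMock samples and 3466 to 4387 in siFUBP1 samples, and that of NTHL1 was 454 to 605 and 394 to 421.

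The other genes of the TSC complex and RHEB moved the same way or did not pass the test. TSC1, the partner that stabilizes tuberin, fell from 65.3 ± 4.94 to 41.5 ± 3.18 CPM (SD, n = 3 each), with a log2 fold change of -0.65 (adjusted p = 5.81e-07, edgeR's quasi-likelihood test). Of the 5 genes of this list, 4 fell, none rose, and the median log2 fold change was -0.35, beside 0.0020 over all genes tested, of which 30.1% fell. This share, like the 30.1% of all genes that rose, is the background for the counts of each list given here. The other genes that fell were TBC1D7, a further subunit of the complex, at -0.35 (adjusted p = 0.00851) and RHEB, the GTPase that the complex switches off, at -0.35 (adjusted p = 2.67e-04). The list therefore holds an activator of mTORC1 as well as its inhibitors. TBC1D7 and RHEB are named here after their values were seen.

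MTOR (ENSG00000198793, chr1:11106535-11262507, minus strand), the kinase itself, had 139, 168 and 164 CPM in siMock and 128, 113 and 123 CPM in siFUBP1. The lowest siMock sample, replicate 1, stood only a little above the highest siFUBP1 sample. The means were 157 ± 16.2 and 121 ± 7.74 CPM (SD, n = 3 each), and MTOR fell to 77.0% of its siMock level with a log2 fold change of -0.38 (SE 0.0834, 95% interval -0.55 to -0.20, adjusted p = 3.58e-04, edgeR's quasi-likelihood test). With that trend removed it was -0.25 (adjusted p = 0.00228). RPTOR (ENSG00000141564, chr17:80544819-80966371, plus strand), which presents substrates to the kinase, had 99.4, 103 and 95.4 CPM in siMock and 88.2, 76.0 and 75.2 CPM in siFUBP1. The groups did not overlap, and siFUBP1 replicate 1 lay nearest to siMock. RPTOR fell from 99.1 ± 3.55 to 79.8 ± 7.26 CPM (SD, n = 3 each), to 80.5%, with a log2 fold change of -0.31 (SE 0.0812, 95% interval -0.48 to -0.15, adjusted p = 0.00168, edgeR's quasi-likelihood test). RPTOR no longer passed the test with the same trend removed, where the log2 fold change was -0.021 and the adjusted p was 0.806. RPTOR mRNA has a GC content of 59.8%.

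DEPTOR (ENSG00000155792, chr8:119873717-120050913, plus strand) encodes an inhibitory subunit of both mTOR complexes and was barely expressed. It had 8, 7 and 13 counts in siMock and 19, 9 and 19 in siFUBP1, and siFUBP1 replicate 2 lay within the range of siMock. The means were 0.578 ± 0.224 and 0.911 ± 0.340 CPM (SD, n = 3 each), with a log2 fold change of 0.66 whose 95% interval ran from -0.27 to 1.58 (adjusted p = 0.215, edgeR's quasi-likelihood test). The interval holds 0 as well as the rise seen in EIF4EBP1, so a rise of that size is neither shown nor excluded for DEPTOR at this depth.

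Over the 7 genes of the mTORC1 complex and its assembly factors, 1 rose and 3 fell, with a median log2 fold change of -0.19. The gene that fell most was TELO2, part of the complex that folds and stabilizes MTOR and related kinases. It went from 87.4 ± 8.83 to 41.2 ± 1.88 CPM (SD, n = 3 each), a log2 fold change of -1.08 (adjusted p = 6.77e-11, edgeR's quasi-likelihood test), and with the GC content and length correction this was -0.73. The gene that rose was AKT1S1, which encodes PRAS40, an inhibitory subunit, at 0.57 (adjusted p = 2.16e-06), named after its value was seen. Among 4 subunits specific to mTORC2, the other complex built on MTOR, 1 rose and 2 fell and none was called.

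RRAGC (ENSG00000116954, chr1:38838198-38859823, minus strand) encodes RagC, a GTPase that pairs with RagA or RagB to hold mTORC1 at the lysosome. Its level was 23.1, 21.1 and 22.8 CPM in siMock and 35.5, 38.3 and 33.7 CPM in siFUBP1, with a wide gap between the groups. The means were 22.3 ± 1.10 and 35.8 ± 2.32 CPM (SD, n = 3 each), a 1.61-fold rise with a log2 fold change of 0.68 (SE 0.0962, 95% interval 0.49 to 0.88, adjusted p = 9.31e-07, edgeR's quasi-likelihood test). The gene shares 22.9% of its exonic bases with AL139260.2 on the same strand, which had 0 counts in all 6 samples.

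RRAGD (ENSG00000025039, chr6:89364636-89412270, minus strand) encodes RagD, which can take the place of RagC. It had 3, 4 and 4 counts in siMock and 13, 12 and 19 in siFUBP1, so the groups were apart but rested on few reads. It entered the test only through the siFUBP1 samples, since the siMock counts alone lay under the filter, and the values of the fit are therefore no independent support for a difference. The log2 fold change was 1.89 with a broad 95% interval of 0.82 to 2.95 (SE 0.518, adjusted p = 0.00275, edgeR's quasi-likelihood test). On the scale of log2(FPKM + 1), which understates changes of low genes, the difference was 0.16. Per length RRAGD stayed far below RRAGC, at 0.0439 against 4.27 FPKM in siMock and at 0.166 against 6.89 FPKM in siFUBP1.

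The GTPases that pair with these 2, RagA and RagB, did not pass the test. RRAGA, RagA, had 88.5 ± 5.73 CPM in siMock and 87.6 ± 1.25 CPM in siFUBP1 (SD, n = 3 each), with a log2 fold change of -0.015 (95% interval -0.18 to 0.15, adjusted p = 0.879). RRAGB, RagB, had 26.6 ± 1.72 and 28.4 ± 0.553 CPM, with a log2 fold change of 0.093 (95% interval -0.10 to 0.29, adjusted p = 0.416, edgeR's quasi-likelihood test). In both, the groups overlapped. Among the 10 genes of the Rag GTPases and the Ragulator, the scaffold that anchors them, 3 rose, 1 fell and 6 did not pass. RRAGD, which entered the test only through its siFUBP1 samples, is 1 of the 3 counted as risen.

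**Figure D2:**
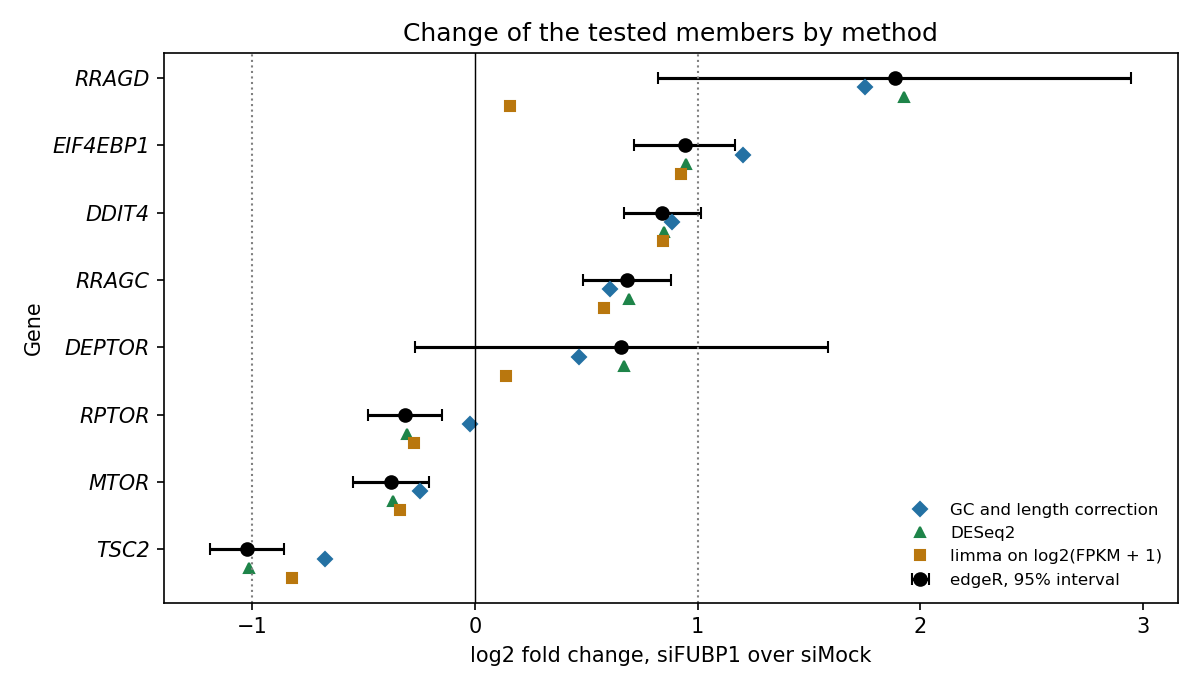
Log2 fold change of siFUBP1 over siMock (horizontal axis) for the 8 genes tested, with edgeR's 95% interval as black bars, and the values by DESeq2, by limma on log2(FPKM + 1) and with the GC content and length correction as coloured marks; dotted lines stand at the threshold of 1 in each direction. RPTOR moves to -0.021 and TSC2 to -0.67 with the correction, and the low gene RRAGD spans 0.16 to 1.89.

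SESN3 (ENSG00000149212, chr11:95165513-95232541, minus strand), a sestrin, had 6, 2 and 2 counts in siMock and 4, 1 and 3 in siFUBP1. CASTOR1 (ENSG00000239282, chr22:30285117-30289627, minus strand), the arginine sensor, had 5, 2 and 3 counts in siMock and 1, 5 and 6 in siFUBP1. Both were nearly silent, with overlapping groups, and neither passed the filter on low counts. Tested without that filter, SESN3 had a log2 fold change of -0.37 (adjusted p = 0.810, edgeR's quasi-likelihood test) and CASTOR1 one of 0.18 (adjusted p = 0.901). CASTOR1 shares 46.0% of its exonic bases with AC004997.1 on the same strand, which had 0 counts in all samples, and reads in the shared bases cannot be assigned to 1 of the pair.

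The paralogs of these silent sensors were expressed, and they moved in different directions. SESN2 had 328, 293 and 262 counts in siMock and 2071, 2658 and 1523 in siFUBP1, and it rose from 18.0 ± 1.80 to 121 ± 33.0 CPM (SD, n = 3 each). All siFUBP1 samples were several times above siMock, but they differed widely among themselves. The log2 fold change was 2.75 (SE 0.231, adjusted p = 7.27e-05, edgeR's quasi-likelihood test). SESN1 fell, from 15.5 ± 0.281 to 8.88 ± 0.301 CPM, with a log2 fold change of -0.80 (adjusted p = 4.49e-06). CASTOR2, which binds CASTOR1 and GATOR2, had 172, 232 and 174 counts in siMock and 77, 77 and 82 in siFUBP1. It fell to 38.8%, with a log2 fold change of -1.37 (adjusted p = 3.36e-08). CASTOR2 has near-identical copies on chromosome 7, between which its reads could be split.

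Compared per length, the sestrin total was higher and the CASTOR total lower in all 3 siFUBP1 samples. The summed sestrin level was 8.18 ± 0.508 FPKM in siMock and 36.6 ± 9.56 FPKM in siFUBP1 (SD, n = 3 each). SESN2 made up 63.1 ± 2.36% of it in siMock and 95.0 ± 1.49% in siFUBP1, and SESN3 0.228% and 0.0440%. The summed CASTOR level was 8.62 ± 1.19 FPKM in siMock and 3.41 ± 0.113 FPKM in siFUBP1, of which CASTOR1 was 0.899% and 2.42%. These shares are descriptions, since an exact permutation test of 3 against 3 samples cannot go below p = 0.1.

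Of the 7 genes of the amino acid sensor list, 5 were tested, 3 rose and 2 fell. Besides SESN2, these were LARS, a leucyl-tRNA synthetase that also senses leucine, at 0.97 (adjusted p = 3.79e-11), and BMT2, SAMTOR, the sensor of S-adenosylmethionine, at 0.76 (adjusted p = 8.35e-05, edgeR's quasi-likelihood test). Both are named after their values were seen. The sensors signal to the GATOR complexes, and among 15 genes of GATOR, its anchor KICSTOR and folliculin, 7 rose, 2 fell and 6 did not pass. The largest rise was that of SEC13, a GATOR2 subunit that also belongs to the COPII coat and the nuclear pore, from 105 ± 4.43 to 247 ± 5.14 CPM (log2 fold change 1.23, adjusted p = 2.86e-13). KPTN, a KICSTOR subunit, fell from 12.2 ± 1.79 to 4.74 ± 0.294 CPM (SD, n = 3 each), a log2 fold change of -1.36 (adjusted p = 3.57e-08).

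**Figure D3:**
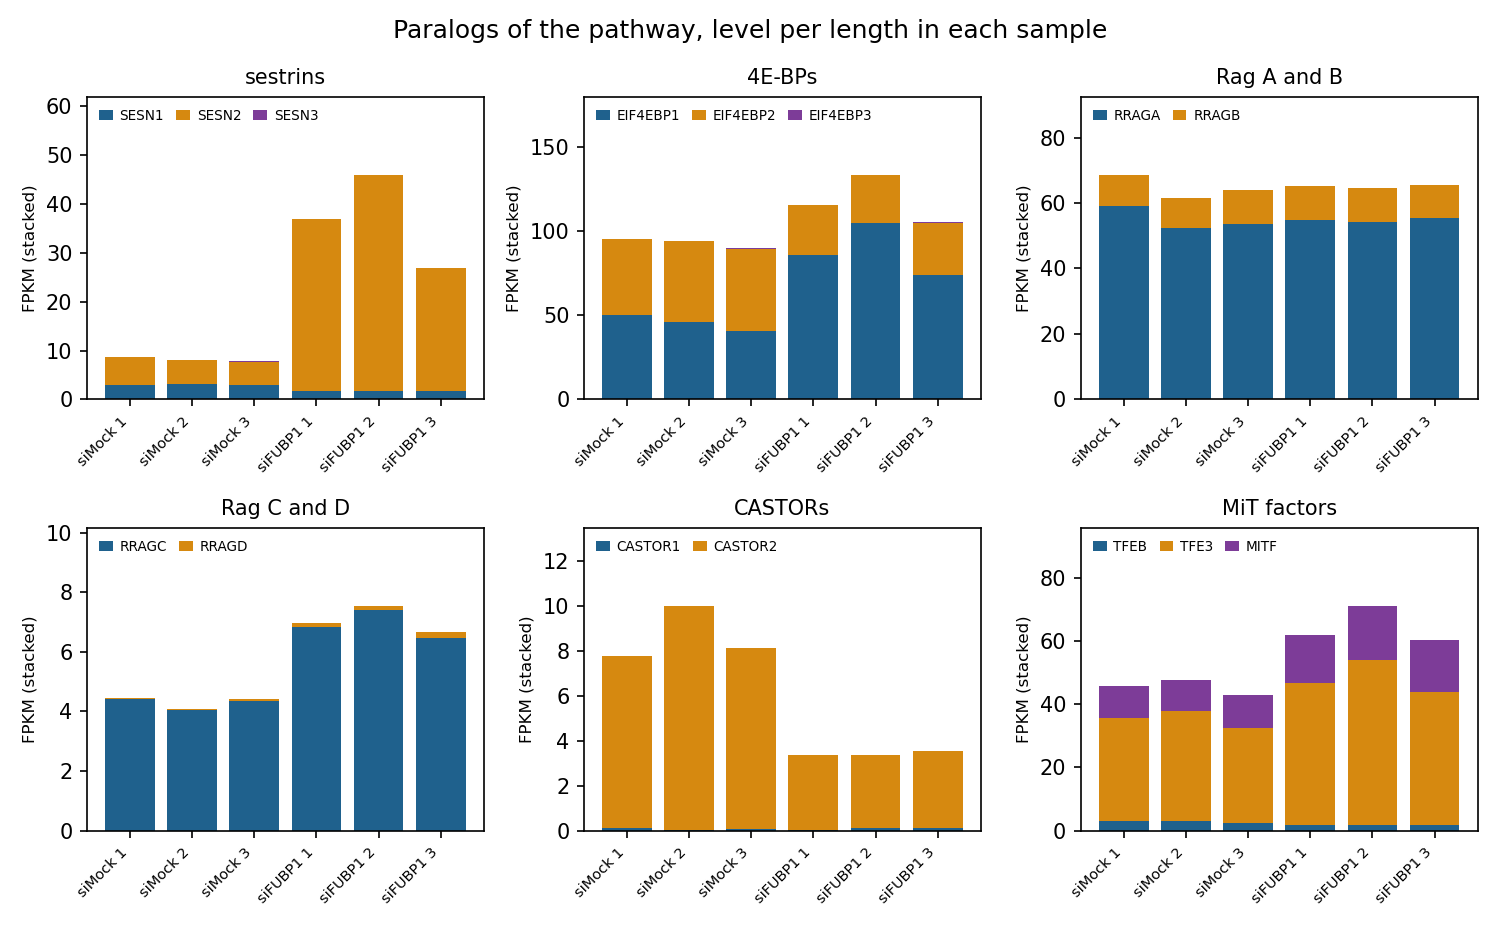
Deposited FPKM of paralogs, stacked by gene, in each of the 6 samples (siMock 1 to 3, then siFUBP1 1 to 3), with 1 panel per family and a separate vertical axis in each. The sestrin column grows from 8.18 to 36.6 FPKM on average and is nearly all SESN2 in siFUBP1, the CASTOR column shrinks from 8.62 to 3.41 FPKM, and the RagA and RagB column stays near 65 FPKM.

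EIF4EBP1 (ENSG00000187840, chr8:38030341-38060365, plus strand) encodes 4E-BP1, which blocks cap-dependent translation by binding EIF4E until mTORC1 phosphorylates it. It had 891, 847 and 692 counts in siMock and 1567, 1961 and 1396 in siFUBP1. In CPM these were 54.6, 49.8 and 44.3 against 92.8, 113 and 80.0. The siFUBP1 samples spread more than the siMock samples, but the lowest of them stood well above the highest siMock sample. The means were 49.6 ± 5.14 and 95.3 ± 16.7 CPM (SD, n = 3 each), a 1.92-fold rise with a log2 fold change of 0.94 (SE 0.108, 95% interval 0.72 to 1.17, adjusted p = 2.36e-07, edgeR's quasi-likelihood test). The threshold of 1 was passed without siMock replicate 1, at 1.01, without siFUBP1 replicate 3, at 1.05, and with the GC content and length correction, at 1.20. EIF4EBP1 mRNA is the richest in GC of the 10 genes, at 65.5%.

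Its paralog EIF4EBP2 fell from 347 ± 15.6 to 217 ± 12.1 CPM (SD, n = 3 each), with a log2 fold change of -0.68 (adjusted p = 2.82e-08, edgeR's quasi-likelihood test). EIF4EBP3 was counted from 2 to 7 times in siMock samples, 2 or 3 times in siFUBP1 samples, and was not tested, and it shares 73.4% of its exonic bases with the readthrough gene ANKHD1-EIF4EBP3. Per length, EIF4EBP1 and EIF4EBP2 were about level in siMock, at 48.8 ± 3.69% and 50.7 ± 3.63% of the 4E-BP total. In siFUBP1, EIF4EBP1 made up 74.4 ± 4.30% and EIF4EBP2 25.5 ± 4.31%. The total was 93.4 ± 2.89 FPKM in siMock and 118 ± 14.2 FPKM in siFUBP1 (SD, n = 3 each), so it grew less than EIF4EBP1 itself did.

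Among 18 substrates and effectors of mTORC1, 17 were tested, of which 7 rose and 6 fell, with a median of 0.044 on the log2 scale. The called gene of this list was GRB10, an adaptor phosphorylated by mTORC1 that damps insulin signalling. It rose from 4.76 ± 1.12 to 17.4 ± 3.18 CPM (SD, n = 3 each), a log2 fold change of 1.86 (adjusted p = 5.92e-10, edgeR's quasi-likelihood test). Among 16 stress, energy and growth factor inputs, the list of DDIT4, 14 were tested, 6 rose and 2 fell. TRIB3, a stress-induced pseudokinase that binds AKT, rose from 73.2 ± 6.92 to 284 ± 43.7 CPM, a log2 fold change of 1.95 (adjusted p = 1.27e-13). PRKAA2, a catalytic subunit of the energy sensor AMPK, rose from 14.4 ± 1.13 to 30.0 ± 2.47 CPM, a log2 fold change of 1.06 (adjusted p = 4.00e-09), which was 0.92 with the GC content and length correction.

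Over all 8 lists, which hold 82 genes with the 10 described here, 77 were tested, 28 rose and 22 fell, so that 64.9% passed the test beside 60.2% of all genes. Their median lay at 0.099 on the log2 scale. With the 10 genes set aside, 62.3% of the 69 others tested passed. The shares of the single lists rest on few genes.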

How the data were processed

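Poly(A) RNA of MG63 cells was sequenced by the authors in 3 siMock and 3 siFUBP1 samples, grouped here by their labels. The authors deposited raw read counts per gene without normalization, and FPKM values computed by the authors from gene length and a scaled library size. The submitters' processing notes name HISAT2 2.0.5, StringTie 1.3.3b, featureCounts 1.5.0-p3 and DESeq2 1.16.1. The strand setting used in counting is not given in the sources used here. The deposited signal columns (group values), log2 fold changes and p-values of the authors' own comparison were not used. All 58735 identifiers match GENCODE release 29 (GRCh38).

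The quasi-likelihood test was run on the counts in edgeR 4.0.16 under R 4.3.3 (TMM scaling, expression filter, robust quasi-likelihood fit, Benjamini-Hochberg adjustment over 16116 genes). Values in CPM are counts scaled to a common TMM-adjusted library size, with factors of 0.959 to 1.05. The test was checked on simulated data without a trend on GC content. Of genes changed by 0.7, 1 and 2 on the log2 scale it recovered 79.1%, 95.5% and 100%, and 5 of 15872 unchanged genes passed. The simulation changed only a small set of genes, equally up and down, and gave every gene the same dispersion. It therefore does not show how the test behaves in these data, where 60.2% of genes passed and some genes varied more. With a GC trend added, of a size not taken from these data, 6271 of 15916 unchanged genes passed the same test. The GC content and length correction lowered this to 3. The added trend was a straight line on the GC content that the correction fits, so this outcome was fixed in advance. Whether the correction also removes true changes in these data was not tested. Changes in these data also correlated with GC content, at a Spearman's rho of -0.203. What share such a trend has in the genes that passed was not tested. Limits from counts cover counting error only, at 3 counts for a gene at 0.

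The 10 genes and the pathway lists were chosen with earlier results of these data known, so no test was made over a list. Besides the 10 genes and FUBP1, the rule named 9 paralogs or partners and up to 2 further called genes in each list; others are marked. Alternatives were other scalings and filters, DESeq2 1.42.0, limma 3.58.1 on log2(FPKM + 1) and log2(FPKM + 0.1), the replicate number as a block, leaving out each sample, and, chosen after seeing the data, a smooth correction for GC content and length (span 0.3).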

Additional observations from a re-analysis of the deposited data

How the results depend on the processing

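FUBP1 and the 7 tested genes other than RPTOR kept their direction and their side of the test's threshold in all 17 alternatives. RPTOR did so in 15: its log2 fold change was -0.021 (adjusted p = 0.806) with the GC content and length correction and -0.024 (adjusted p = 0.779) with that correction and a replicate block, and over the other fits its adjusted p was at most 0.0234. Log2 fold changes ranged over 0.77 to 0.94 for DDIT4, 0.81 to 1.20 for EIF4EBP1, 0.58 to 0.78 for RRAGC, 0.16 to 2.02 for RRAGD, -0.47 to -0.25 for MTOR, -1.08 to -0.67 for TSC2 and 0.14 to 1.00 for DEPTOR. RRAGD entered the fits with a filter on low counts only through its siFUBP1 samples, so its values there are descriptions. Across genes, Spearman's rho of the log2 fold change with GC content was -0.203, and -0.0076 with the correction (16109 genes, which are not replicates).

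Of the 10 genes, the number called higher was 1, and it was 2 with total counts and with the correction, with or without the block, 4 at a threshold of 0.5, and 0 by limma on either FPKM scale. The number called lower was 1, and it was 0 with upper-quartile scaling, total counts, limma on either scale and the correction, with or without the block. Leaving out 1 sample gave 1 to 2 higher and 0 to 1 lower. Limma on log2(FPKM + 1) called 462 of all genes higher and 588 lower, against 1315 and 1472, and 3 pathway genes higher, against 6. Called lower were 2 pathway genes there, with total counts and with the correction with or without the block, against 4. The cause of these shifts was not tested, apart from thresholds and pseudocounts, which change the scale by construction. Samples of 1 number in both groups showed no clear pairing. Their deviations correlated at -0.0047, 0.017 and 0.12, beside -0.092 to 0.074 for samples of unlike number. The value of 0.12, for replicate 3, was the highest, so pairing is not settled by these values. With a replicate block, 5013 genes rose and 5001 fell, against 4844 and 4851, DDIT4 had a log2 fold change of 0.84, and no call on the 10 genes changed. Depth limits SESN3, CASTOR1, DEPTOR and RRAGD, which had at most 19 counts in a sample.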

Other observations

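The MiT transcription factors, which mTORC1 keeps out of the nucleus when nutrients are plentiful and which drive lysosomal genes, are on the list of effectors and are described here after their values were seen. TFEB had 274, 287 and 216 counts in siMock and 169, 180 and 163 in siFUBP1, and it fell with a log2 fold change of -0.68 (adjusted p = 6.24e-05, edgeR's quasi-likelihood test). TFE3 rose from 141 ± 10.2 to 199.8 ± 21.6 CPM (SD, n = 3 each), at 0.51 (adjusted p = 1.08e-05), and MITF rose from 74.6 ± 2.14 to 117 ± 7.08 CPM, at 0.65 (adjusted p = 6.72e-08). Per length, their sum was 45.5 ± 2.45 FPKM in siMock and 64.3 ± 5.78 FPKM in siFUBP1. TFEB made up 6.08% of it in siMock and 2.72% in siFUBP1, and TFE3 71.3% and 72.0%.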
